A study of Mus musculus with 5 samples.

Results

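Epithelial structural proteins were followed at the mRNA level in mouse kidneys after ischemic injury, through 8 genes: the keratins Krt7, Krt8, Krt18, Krt19, Krt20, Krt23 and Krt80 and the small proline-rich protein gene Sprr2f. They were taken by gene name from tables that list 35478 genes, and all 8 were found and all 8 had enough reads to be fitted. The set was chosen by family and on counts of these same libraries, in which Krt19 and Sprr2f had been seen among the genes with the largest differences between the genotypes, so the fold changes of the 8 genes between the groups are given as a description and carry no test.

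The libraries came from mice with a conditional Prdm16 allele that underwent unilateral ischemia-reperfusion injury (UIRI), in which blood flow to 1 kidney is stopped by a clamp and then restored. The left renal pedicle was clamped for 35 minutes with the mice held at 38.5 degrees C, the right kidney was taken out at day 10, and the injured kidneys were collected a day later, at day 11. One group was Prdm16fl/fl (PRDM16flox/flox in the labels; 2 mice, numbered 1 and 3), called control mice here although they were injured too, and the other was Ksp-Cre/Prdm16fl/fl (3 mice, numbered 1, 2 and 3), called Ksp-Cre mice. The comparison asks how loss of Prdm16, which encodes a transcriptional regulator, from tubular cells changes the injured kidney. All 5 mice carried floxed Prdm16 alleles with exon 9 between the loxP sites, were on a mixed C57BL/6J;129 background as the strain label gives it, were males of 7 to 8 weeks at the start, and had the same injury. Cre was driven by the Ksp-cadherin (Cdh16) promoter, which is active in tubular epithelium, so cells of other kinds kept the gene. No library of an uninjured kidney or of a mouse with Cre alone was analysed here, and with bulk RNA of kidney cortex a change in the number of cells of a type and a change in RNA per cell cannot be told apart.

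Keratins are the intermediate filament proteins of epithelia. Acidic type I keratins, here Krt18, Krt19, Krt20 and Krt23, assemble only as partners of basic type II keratins, here Krt7, Krt8 and Krt80. Krt8 and Krt18 form the basic pair of simple epithelia, which also line the nephron, Krt7 and Krt19 are known from ducts, and Krt20 is known from urothelium, gut and injured tubules. Sprr2f belongs to a family of short precursors that are crosslinked into the cornified envelope of squamous epithelia and is known from mouse uterus, where estrogen induces it.

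Total counts per library were between 14939040 and 16425161. Ksp-Cre mouse 3 stood apart from the rest: the mean correlation of its log2 profile with the other libraries, across genes, was 0.952, against 0.969 to 0.975 for the other 4. Prdm16 was at 25.3 and 20.02 CPM (TMM-scaled counts per 1000000) in control mice and at 17.1, 17.0 and 17.99 CPM in Ksp-Cre mice, a log2 fold change of -0.38 (SE 0.15; adjusted p = 0.259, edgeR). The groups did not overlap, and 21.3% of all genes tested were likewise lower in every Ksp-Cre mouse. The reads were summed over the whole gene, so these values do not measure loss of the floxed exon. Cdh16 was among the abundant epithelial genes in every mouse, with 8627 to 15285 counts (log2 fold change -0.31, adjusted p = 0.497, edgeR).

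The sequences of Sprr2f are shown first because it had the largest fold change of the 8 genes and because it belongs to a family of close copies, whose reads could be mixed. Its coding sequence (GENCODE M21, GRCm38, chr3:92365896-92366126, plus strand, a single coding exon of 231 bases) was shifted against itself. Of the shifts tried, 27 bases gave the highest share of equal bases, 46.6%. The next were 43.8% at 39 bases, 41.2% at 54 and 38.8% at 12, so this period stood out only slightly. Capitals mark bases 73 to 147, the 75 bases spanned by windows of 27 bases that matched the next window at 75% or more. Windows between the first and the last of these were not required to reach 75%.
Sprr2f coding sequence: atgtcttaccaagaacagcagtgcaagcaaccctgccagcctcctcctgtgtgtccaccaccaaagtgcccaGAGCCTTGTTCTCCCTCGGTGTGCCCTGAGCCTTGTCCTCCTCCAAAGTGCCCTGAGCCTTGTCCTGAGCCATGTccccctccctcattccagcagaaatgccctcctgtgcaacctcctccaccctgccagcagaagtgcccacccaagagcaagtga
The identity of this coding sequence to those of other Sprr2 genes reached 90.1% for Sprr2e and 88.4% for Sprr2g. However, none of the 510 words of 100 bases in the Sprr2f transcript occurred in a transcript of another gene. The other 9 Sprr2 genes counted, which include Sprr2e and Sprr2i but not Sprr2g, had 3 counts or fewer in every library. None of the words of 100 bases was shared for Krt7, Krt18, Krt19, Krt20 and Krt23 either. Krt8 shared 17.1% of its words with other genes, nearly all with its pseudogene Krt8-ps, and Krt80 shared 2.46%, so the counts of these 2 are less certain, since it is not given how reads that match several genes were counted. The 7 keratin coding sequences were 48.2% to 65.8% identical to each other, highest for Krt7 and Krt8.

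The 250 bases before the transcript start were matched by symbol to the RefSeq promoter table (GRCm38.p6) for 6 of the 8 genes: Krt7, Krt8, Krt18, Krt20, Krt23 and Sprr2f. Searched on both strands were the AP-1 motif, spelled TGANTCA and the same form on either strand, the TATA box, spelled TATAAA, and the Sp1 motif known as GC box, spelled GGGCGG, none of which overlapped another. The promoters of Sprr2f and Krt20 are printed because both hold TATAAA at the same distance from the start, with motif matches in capitals.
Sprr2f promoter, chr3:92364937-92365186, plus strand: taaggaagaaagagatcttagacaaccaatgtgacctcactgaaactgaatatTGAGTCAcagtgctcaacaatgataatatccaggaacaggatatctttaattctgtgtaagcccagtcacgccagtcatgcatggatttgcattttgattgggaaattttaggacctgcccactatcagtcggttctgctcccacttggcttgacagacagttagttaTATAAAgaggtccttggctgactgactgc
Krt20 promoter, chr11:99438154-99438403, minus strand: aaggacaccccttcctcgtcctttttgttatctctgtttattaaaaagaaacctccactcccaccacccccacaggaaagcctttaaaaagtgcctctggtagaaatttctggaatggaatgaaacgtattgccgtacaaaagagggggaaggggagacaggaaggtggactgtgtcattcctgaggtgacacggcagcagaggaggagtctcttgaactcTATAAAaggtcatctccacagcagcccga
TATAAA lay 29 to 24 bases before the start in both, and 12.4% of 32851 promoters in the table held this motif. Sprr2f was the only one of the 6 with TGANTCA, 197 to 191 bases before its start, against 6.75% of all promoters. GGGCGG was found in Krt7 only, with 4 matches, and in 32.7% of all promoters. These matches describe letters in a window and no binding was measured.

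Levels differed widely among the 8 genes and were compared between genes as TPM, a measure per transcript length. In control mice the order was Krt8 (323 ± 3.04 TPM, SD, n = 2), Krt7 (224 ± 27.6), Krt18 (84.9 ± 7.03), Krt20 (69.1 ± 4.26), Krt19 (17.7 ± 1.20), Sprr2f (12.4 ± 5.43), Krt80 (7.34 ± 1.48) and Krt23 (3.78 ± 0.253), and the ranges of neighbours in this order did not overlap. In Ksp-Cre mice the order of the means was the same, from Krt8 (503 ± 79.95 TPM, SD, n = 3) down to Krt23 (7.01 ± 1.44). Here the ranges of Krt7 and Krt18, of Krt18 and Krt20, and of Krt19 and Sprr2f overlapped, so these neighbours did not differ beyond their spread over mice. Within each Ksp-Cre mouse Krt7 was nonetheless above Krt18, at 413 beside 281, 277 beside 189 and 226 beside 191 TPM. Sprr2f, of a family known from squamous epithelia, reached 80.2 ± 11.6 TPM in these kidneys, beside 81.5 ± 18.1 TPM for Krt19.

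Thresholds of 0.05 for the adjusted p and 1 for the size of the log2 fold change were set for an edgeR quasi-likelihood fit over all genes. Of the 16394 genes tested, 13 (0.0793%) were past both in the direction of higher values in Ksp-Cre mice and 103 (0.628%) in the other. At an unadjusted p under 0.05 (edgeR), 7.64% were higher and 11.2% lower, to be set beside such counts for each list below. Krt19 and Sprr2f were among the 13, which restates why they were chosen and is no test of them. In 6 of the 8 genes every Ksp-Cre mouse was above both control mice, as in 20.3% of all genes tested, and 4 of the 8 had a log2 fold change of at least 1, against 2.75%. The median log2 fold change of the 8 was 0.84, beside 0.04 over all genes. Since the choice of genes used this contrast, nothing is read from these shares. Without Ksp-Cre mouse 3, where 231 genes higher and 502 lower were called in the whole table, Krt18, Krt19 and Sprr2f were past both thresholds. Without any one of the other 4 mice no gene of the whole table was, and leaving out a control mouse leaves that group with 1 mouse, which is then assumed to vary like the Ksp-Cre mice, so these fits say nothing of the 8 genes in particular.

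**Figure D1:**
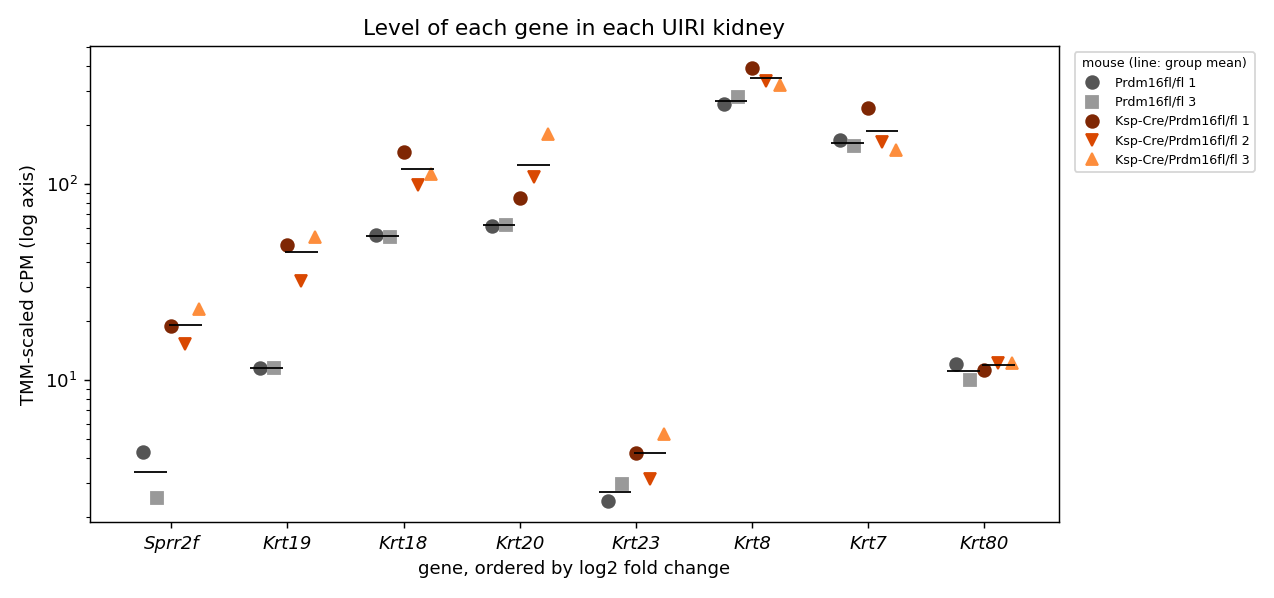
TMM-scaled CPM of the 8 genes (vertical log axis) in each of the 5 mice (symbols), ordered from left to right by log2 fold change, with a line at each group mean. The Ksp-Cre mice lie above both control mice for Sprr2f, Krt19, Krt18, Krt20, Krt23 and Krt8, and the groups overlap for Krt7 and Krt80.

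Among the type I keratins, Krt19 (chromosome 11, 100031636 to 100036752, minus strand), which lacks most of the tail domain of other keratins, differed most. It was at 11.5 and 11.5 CPM in control mice 1 and 3 (170 and 160 counts) and at 49.0, 32.0 and 53.9 CPM in Ksp-Cre mice 1, 2 and 3 (863, 542 and 809 counts). All Ksp-Cre mice were far above the control mice, which were nearly equal. With 2 control mice, this near equality does not give the spread of their group. The means were 11.5 ± 0.0141 CPM (SD, n = 2) and 45.0 ± 11.5 CPM (SD, n = 3), a log2 fold change of 1.97 (SE 0.25), or 3.92-fold. It lay between 1.83 and 2.17 when each mouse in turn was left out, and was 1.83 without Ksp-Cre mouse 3.

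Krt18 (chromosome 15, 101936651 to 101940461, plus strand), the type I partner of Krt8, was at 54.8 and 53.7 CPM in control mice and at 146, 98.5 and 112 CPM in Ksp-Cre mice 1, 2 and 3. The groups did not overlap, and the highest value was that of Ksp-Cre mouse 1. The log2 fold change was 1.13 (SE 0.19), with means of 54.3 ± 0.753 and 119 ± 24.7 CPM, and it was 1.18 without Ksp-Cre mouse 3.

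Krt20 (chromosome 11, 99319211 to 99328979, minus strand) was at 61.2 and 61.9 CPM in control mice and at 85.2, 108 and 180.1 CPM in Ksp-Cre mice 1, 2 and 3. The groups did not overlap, but the 3 Ksp-Cre mice were spread widely and mouse 3 was well above the other 2. The log2 fold change of 1.02 (SE 0.32) became 0.65 without Ksp-Cre mouse 3, so its size rested in part on the library that stood apart.

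Krt23 (chromosome 11, 99368799 to 99383946, minus strand) was the scarcest of the 8 genes by TPM, with 36 and 41 counts in control mice and 75, 53 and 80 counts in Ksp-Cre mice. On the CPM scale these were 2.43 and 2.94 against 4.26, 3.13 and 5.33. The groups did not overlap, although Ksp-Cre mouse 2 lay just above control mouse 3. The log2 fold change was 0.66 (SE 0.32) and 0.47 without Ksp-Cre mouse 3.

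The type II keratins differed less. Krt8 (chromosome 15, 101905146 to 101912777, minus strand), the most abundant of the 8 genes, was at 256 and 278 CPM in control mice and at 393, 336 and 321 CPM in Ksp-Cre mice 1, 2 and 3. Each Ksp-Cre mouse was above both control mice, with a log2 fold change of 0.39 (SE 0.15) and of 0.45 without Ksp-Cre mouse 3. Krt8 and Krt18 are neighbours, with 23.9 kb between them in the coordinates of the files, and had log2 fold changes of 0.39 and 1.13.

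Krt7 (chromosome 15, 101310284 to 101325687, plus strand) was at 168 and 156 CPM in control mice and at 244, 164 and 149.9 CPM in Ksp-Cre mice 1, 2 and 3. Only Ksp-Cre mouse 1 was above both control mice, and mouse 3 was below both. The log2 fold change of 0.20 (SE 0.23) was within its error, and it became -0.05 when Ksp-Cre mouse 1 was left out and 0.34 without mouse 3.

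Krt80 (chromosome 15, 101246196 to 101268043, minus strand), a type II keratin known from many epithelia, was at 12.1 and 10.1 CPM in control mice and at 11.3, 12.2 and 12.2 CPM in Ksp-Cre mice. The groups overlapped, and the log2 fold change of 0.10 (SE 0.17) changed sign, to -0.03, when control mouse 3 was left out. It was 0.08 without Ksp-Cre mouse 3.

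Sprr2f (chromosome 3, 92272494 to 92273749, plus strand) had the largest fold change of the 8 genes. It had 64 and 35 counts in control mice and 331, 260 and 345 counts in Ksp-Cre mice 1, 2 and 3, or 4.32 and 2.51 CPM against 18.8, 15.4 and 22.99 CPM. The groups were far apart, with means of 3.41 ± 1.28 (SD, n = 2) and 19.1 ± 3.82 CPM (SD, n = 3). The log2 fold change was 2.47 (SE 0.32), or 5.55-fold, and it was 2.32 without Ksp-Cre mouse 3. It lay between 2.14 and 2.92, the highest value being that without control mouse 1, whose level was the higher of its group.

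**Figure D2:**
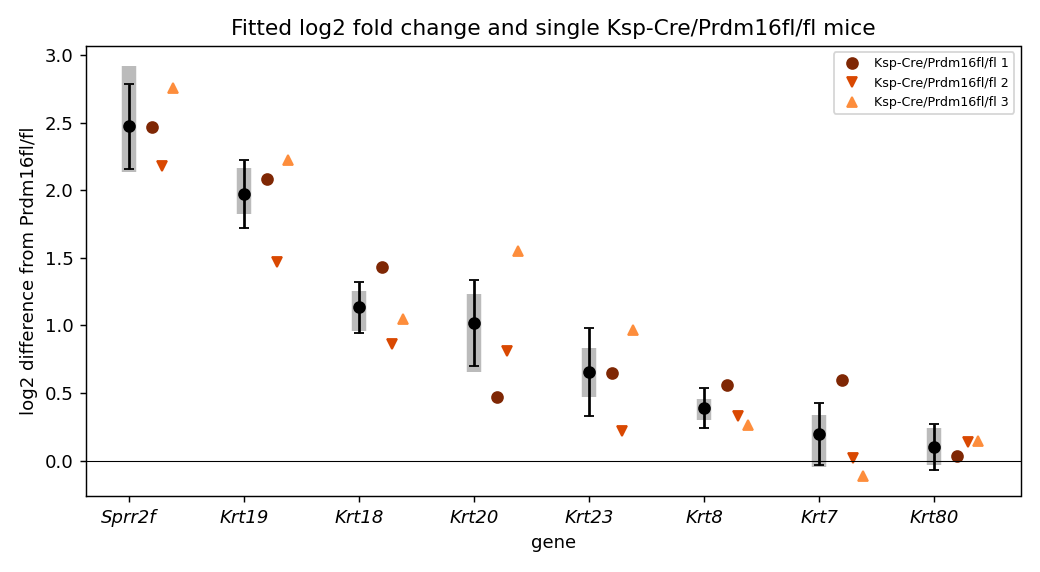
Log2 difference from control mice (vertical axis) for the 8 genes. Black points with bars are fitted log2 fold changes with their standard errors, grey bars span the fits that leave out 1 mouse each, and colored symbols are single Ksp-Cre mice relative to the mean log2 CPM of control mice. The values run from 2.47 for Sprr2f to 0.10 for Krt80, and the grey bars of Krt7 and Krt80 cross 0.

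The 3 Ksp-Cre mice did not rank alike for all 8 genes. Krt7, Krt8 and Krt18 were highest in mouse 1, whereas Krt19, Krt20, Krt23 and Sprr2f were highest in mouse 3. Krt20 and Krt7 ran in opposite order over these 3 mice. Over all 5 libraries, the profiles of Krt7 and Krt8 were the closest pair among the 8, with a root mean square difference of 0.191 between their centred log2 CPM, and those of Krt7 and Sprr2f were the farthest apart, at 1.19.

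The make-up of the keratin pool is drawn from the same values on which the genes were chosen. Its sums, ratios and shares are therefore a description and no further test. They differed between the groups in part. The 7 keratins held 98.5% to 99.6% of the summed TPM of all listed keratin genes in every mouse. The sum over all listed keratin genes was 767 and 709 TPM in control mice and 1511, 1196 and 1179 TPM in Ksp-Cre mice. On this scale all Ksp-Cre mice were higher. TPM is relative to each library's own total, without TMM scaling, and for Krt80 the groups overlapped in CPM but not in TPM.

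Type I keratins summed to 184 and 167 TPM in control mice and to 498, 403 and 512 TPM in Ksp-Cre mice, while type II keratins summed to 577 and 532 TPM and to 1007, 786 and 660 TPM. Type II mRNA was in excess in every mouse, and in Ksp-Cre mouse 3 the type I sum was the highest of the 5 mice while the type II sum was the lowest of its group. The ratio of type I to type II, which does not depend on scaling between libraries, was 0.319 and 0.314 in control mice and 0.495, 0.514 and 0.776 in Ksp-Cre mice, without overlap. The ratio of Krt8 to Krt18 was 3.62 and 4.02 in control mice and 2.08, 2.64 and 2.22 in Ksp-Cre mice, again without overlap.

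As a share of keratin TPM, Krt19 took 2.42% and 2.38% in control mice and 6.14%, 5.06% and 7.72% in Ksp-Cre mice. The share of Krt18 was also higher in each Ksp-Cre mouse, at 15.8% to 18.6% against 11.3% and 11.7%. The share of Krt7 was lower in each of them, at 19.2% to 27.4% against 28.9% and 31.8%. The share of Krt20 overlapped between the groups, from 7.76% in Ksp-Cre mouse 1 to 18.8% in mouse 3, against 9.32% and 9.40% in control mice.

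**Figure D3:**
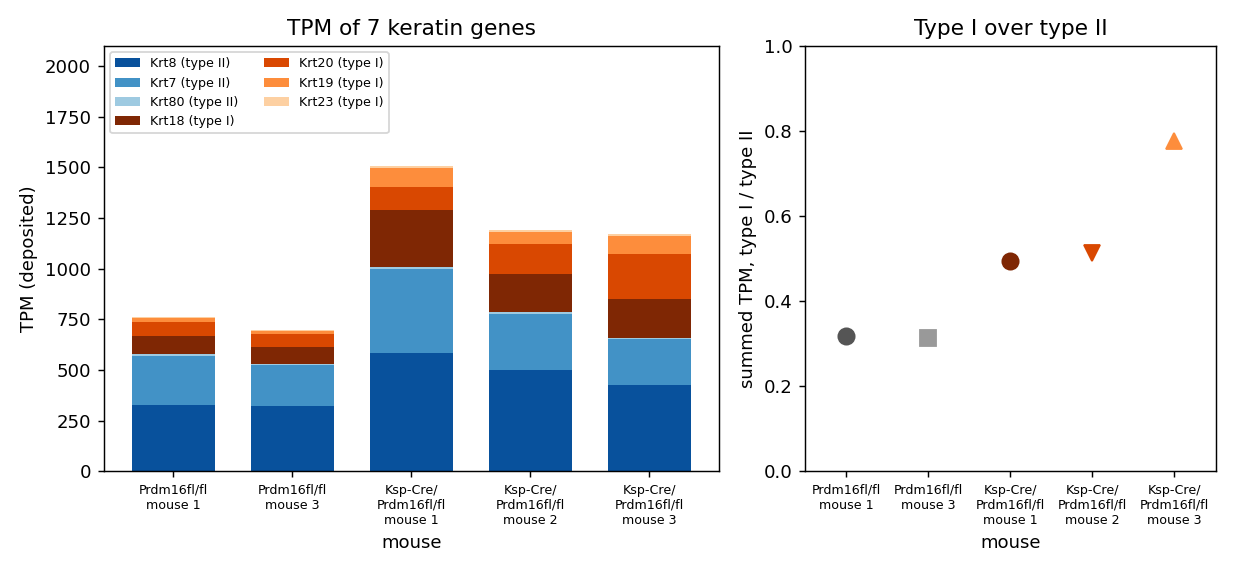
Left, deposited TPM of the 7 keratin genes stacked for each mouse (blue, type II; brown and orange, type I). Right, the ratio of summed type I to summed type II TPM in each mouse, at 0.314 and 0.319 in control mice and 0.495 to 0.776 in Ksp-Cre mice.

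Most of the rest of both families was at or near 0 counts, with Sprr1a and Krt10 the main exceptions. Of 60 other keratin and Sprr genes listed, 29 had 0 counts in every library and 47 had 3 counts or fewer in each, and 3 were expressed highly enough to be tested. None of the 3 was past both thresholds in either direction, and 1 was lower at an unadjusted p under 0.05 (edgeR). Sprr1a, another cornified envelope precursor, had 137 and 185 counts in control mice and 430, 292 and 59 in Ksp-Cre mice, with mouse 3 lowest of all (log2 fold change 0.44, SE 0.68, adjusted p = 0.768, edgeR). Per length it was as abundant as Sprr2f in Ksp-Cre mouse 1, at 82.9 TPM beside 82.8 TPM, but was at 11.9 TPM in Ksp-Cre mouse 3, where Sprr2f was at 90.3 TPM. Krt10, the type I keratin of differentiating epidermis, was lower in each Ksp-Cre mouse, with 156 and 175 counts against 121, 130 and 115 (log2 fold change -0.64, SE 0.19, adjusted p = 0.153, edgeR). Krt222 had a log2 fold change of 0.17 (adjusted p = 0.822, edgeR). Reads of the basal keratins Krt15, Krt5 and Krt14 came almost wholly from 1 library. Krt15 had 41 counts in control mouse 3 and at most 1 in any other, Krt5 had 22 there and at most 3 elsewhere, and Krt14 had 5 there and 0 elsewhere. Krt17 did not follow them, with 1 and 2 counts in control mice and 8, 9 and 1 in Ksp-Cre mice.

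Keratin filaments are held at desmosomes and hemidesmosomes. Of 20 genes for these anchors, 15 were tested, 13 of them had a log2 fold change above 0 and none was past both thresholds, while 5 were higher and 0 lower at an unadjusted p under 0.05 (edgeR), a level at which 7.64% of all genes tested were higher and 11.2% lower. Their median log2 fold change was 0.26, beside 0.04 over all genes and 54% of all genes above 0. Pkp4, a plakophilin family member, was the most abundant (log2 fold change -0.14, adjusted p = 0.561, edgeR), followed by Itga6, the alpha chain of the hemidesmosomal integrin (0.46, adjusted p = 0.198). Dsp, which encodes desmoplakin, the linker from desmosome to keratin filament, had 744 and 638 counts against 1326, 1165 and 981 (0.54, SE 0.12, adjusted p = 0.0897). The desmosomal cadherin gene Dsg2 had 367 and 366 counts against 642, 730 and 644 (0.68, SE 0.13, adjusted p = 0.0726).

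Sprr2f stood beside few other genes of the cornified envelope. Of 9 such genes, 4 were tested, none was past both thresholds, and 1 was higher and 0 were lower at an unadjusted p under 0.05 (edgeR). Tgm1, the transglutaminase that crosslinks envelope precursors, had 493 and 718 counts in control mice and 848, 1300 and 1606 in Ksp-Cre mice, and its groups overlapped in CPM (log2 fold change 0.87, SE 0.36, adjusted p = 0.273, edgeR). Ppl, which encodes periplakin, had 326 and 317 counts against 600, 587 and 1754 (1.47, SE 0.60, adjusted p = 0.263), the value of Ksp-Cre mouse 3 being far above the rest, as for Krt20.

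Intermediate filament genes other than keratins gave 12 tested of 16, none past both thresholds, with 1 higher and 0 lower at an unadjusted p under 0.05 (edgeR) and a median log2 fold change of 0.16. Vim, the filament of mesenchymal and dedifferentiated tubular cells, had a log2 fold change of -0.09 (SE 0.22, adjusted p = 0.858) and the nuclear lamina gene Lmna one of 0.35 (SE 0.14, adjusted p = 0.245).

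Of 21 transcription factor genes known from epithelial differentiation, 18 were tested and none was past both thresholds. At an unadjusted p under 0.05 (edgeR), 7 were higher and 0 lower, against 7.64% and 11.2% of all genes tested. The median log2 fold change of the 18 was 0.50, beside 0.04 over all genes. Of the 18, 16 were above 0, against 54% of all genes. The AP-1 genes Jund and Jun were the most abundant, with log2 fold changes of 0.37 (adjusted p = 0.378, edgeR) and 0.68 (adjusted p = 0.142). Elf3, an epithelial ETS factor, had 1066 and 1043 counts in control mice and 1993, 2114 and 1860 in Ksp-Cre mice (0.72, SE 0.11, adjusted p = 0.0516), and the AP-1 gene Fosl2 had 871 and 707 against 2011, 1559 and 2100 (1.08, SE 0.20, adjusted p = 0.0658). Fosl2 passed both thresholds with DESeq2 and without the filter on low counts, and Sox9 (1.80, SE 0.57, adjusted p = 0.174, edgeR) passed with DESeq2 and without Ksp-Cre mouse 3, its highest library.

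Among tested markers of urothelium and collecting duct, where several of these keratins are known, none had a log2 fold change above 0 with TMM scaling, against 54% of all genes. Psca was close to 0 (-0.01), and scaling by library size alone raised the median over all genes by 0.111. Of 7 urothelial markers, summed at 18.6 and 15.6 CPM in control mice and at 7.61, 7.38 and 6.66 CPM in Ksp-Cre mice, none had a log2 fold change above 0 among the 5 tested and none was past both thresholds, with 2 lower at an unadjusted p under 0.05 (edgeR). The uroplakin genes differed among themselves: in the group with high Krt20, 3 of the 4 were at or near 0 and Upk1a was not. Upk2 had 4 and 2 counts against 0, 0 and 0, Upk3a had 3 and 9 against 0, 0 and 1, and Upk1b had 24 and 16 against 0, 2 and 1. Snx31 was lower in each Ksp-Cre mouse (154 and 108 counts against 38, 50 and 18; adjusted p = 0.0646, edgeR) whereas Upk1a had 37 and 28 counts against 33, 25 and 37 (adjusted p = 0.767, edgeR) and Psca 24 and 21 against 26, 19 and 31, with overlap. For the collecting duct, where Krt7, Krt8, Krt18 and Krt19 are known, the 7 principal cell markers, with Hsd11b2 and Aqp2 the most abundant, summed to 744 and 629 CPM against 591, 372 and 398, and the 6 intercalated cell markers, with Atp6v0d2 and Slc26a4, to 352 and 285 against 237, 179.6 and 159. None of these 13 was past both thresholds, with 0 higher and 6 lower at an unadjusted p under 0.05 (edgeR). The summed levels of all 3 lists were thus below those of control mice in each Ksp-Cre mouse, except that with scaling by library size alone the principal cell list overlapped (725 and 587 against 634, 391 and 386 CPM). With DESeq2, 1 urothelial marker (Snx31) and 1 intercalated cell marker (Slc26a4) were past both thresholds, both lower, and without Ksp-Cre mouse 3 so were Upk1b and Slc4a1 (edgeR).

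The 9 injured tubule markers, Spp1 and Clu the most abundant, went the same way as the keratins. They summed to 15330 and 15900 CPM in control mice and to 32720, 33280 and 38440 CPM in Ksp-Cre mice. Most of this sum was Spp1, at 27020, 28060 and 33770 CPM in Ksp-Cre mice. Within the Ksp-Cre group, Spp1, Lcn2 and Sox9 were highest in mouse 3, as were Krt19, Krt20 and Sprr2f, while the other 6, such as Havcr1 (683, 696 and 472 CPM), were lowest there. All 9 had a log2 fold change above 0, against 54% of all genes, with a median of 0.95, beside 0.04. At an unadjusted p under 0.05 (edgeR), 7 were higher and 0 lower, against 7.64% and 11.2% of all genes tested. None was past both thresholds. With DESeq2, 4 of them were (Lcn2, Spp1, Havcr1 and Sox9), and without Ksp-Cre mouse 3 Clu was as well (edgeR). Over the whole table DESeq2 called 112 genes higher and 381 lower, and the fit without Ksp-Cre mouse 3 called 231 and 502. The 9 proximal tubule markers, Slc27a2 and Slc34a1 the most abundant, summed to 9668 and 10110 CPM against 3971, 4662 and 3971 CPM, and 2 of them fell past both thresholds, the organic anion transporter gene Slc22a8 (log2 fold change -2.68, SE 0.22, adjusted p = 0.0242, edgeR) and Miox (-2.23, SE 0.27, adjusted p = 0.0412), or 6 with DESeq2 and 6 without Ksp-Cre mouse 3. The 5 thick ascending limb markers, led by Umod and Slc12a1, summed to 3329 and 4261 against 2691, 2371 and 1246 CPM. The 5 general epithelial markers, led by Cdh16 and Cdh1, summed to 1494 and 1408 against 1629, 1553 and 1285 CPM, and the sums overlapped. Gene by gene none did: Epcam, Cdh1, Cldn4 and Cldn7 were higher in each Ksp-Cre mouse and Cdh16, the most abundant, was lower. Of all genes tested, 20.3% were likewise higher and 21.3% lower without overlap. None of the 10 thick ascending limb and general epithelial markers was past both thresholds, with 3 higher and 2 lower at an unadjusted p under 0.05 (edgeR), while Cldn4 (higher) and Egf (lower) were with DESeq2. Whether these marker values reflect cell make-up or injury, and the part of either in the keratin values, was not tested.

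**Figure D4:**
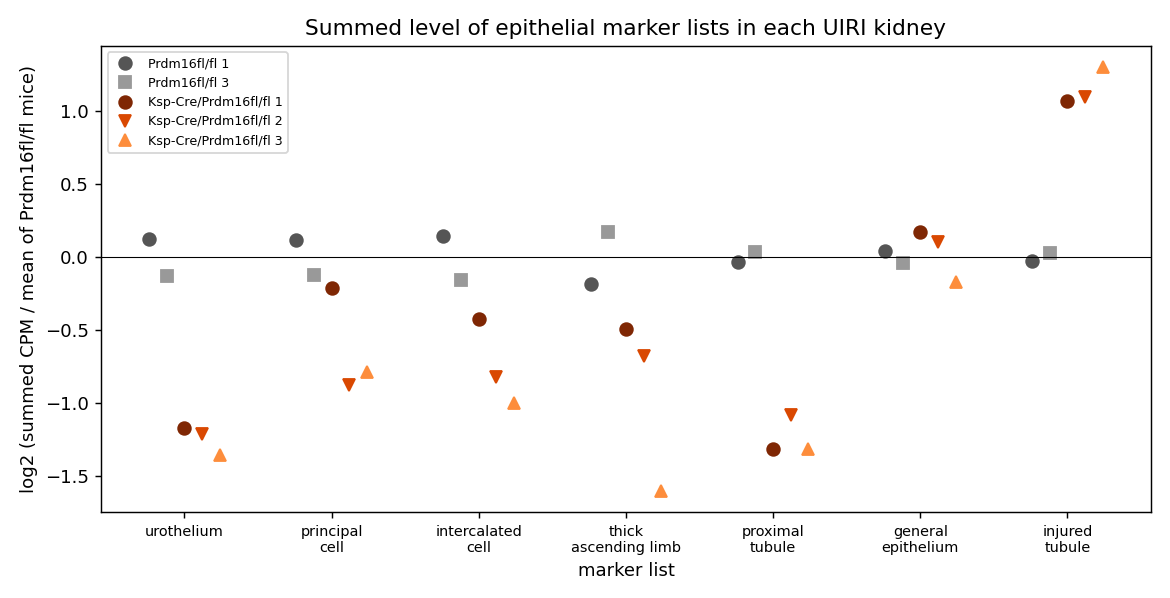
Summed CPM of 7 marker lists in each mouse (symbols) as log2 of its ratio to the mean of the control mice (vertical axis). The urothelial, principal cell, intercalated cell, thick ascending limb and proximal tubule lists lie below both control mice in each Ksp-Cre mouse, the injured tubule list lies above them, with the principal cell list overlapping under scaling by library size alone, and the general epithelial list overlaps.

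Some other lineages were summed in the same way. The mesothelium, another keratin-expressing epithelium, was barely present, with Msln and Upk3b highest and 0.472 to 1.94 CPM in control mice and 0.532 to 0.908 CPM in Ksp-Cre mice. Leukocyte markers (Lyz2, Csf1r) overlapped, at 702 and 969 against 1085, 1005 and 401 CPM, as did endothelial markers (Emcn, Pecam1), at 173 and 169 against 149, 125 and 180.0 CPM. Fibroblast markers (Col1a1, Pdgfrb) were at 245 and 344 against 517, 465 and 381 CPM and red blood cell genes (Hbb-bs, Hba-a1) at 6.67 and 10.8 against 151, 150.3 and 40.5 CPM, without overlap in these 2 lists. None of the genes in these 5 lists was past both thresholds, with 8 higher and 1 lower at an unadjusted p under 0.05 (edgeR), while the 5 red blood cell genes were, all higher, with DESeq2.

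Genes whose profiles were most like those of Krt19 and Sprr2f were sought among 13995 genes, by the root mean square difference of centred log2 CPM over the 5 libraries. Among the closest to Krt19 were Col12a1 (0.204), Gpnmb (0.208), Ccr1 (0.264) and Adgrf1 (0.311). Col12a1, for instance, which encodes a fibril-associated collagen, was at 16.5 and 14.8 CPM in control mice and at 83.1, 60.3 and 95.5 CPM in Ksp-Cre mice, with the mice of the second group in the same order as for Krt19. Among the closest to Sprr2f were Col12a1 (0.210), Krt19 (0.371), F13a1 (0.450) and Gpnmb (0.481). The profile of Sprr2f was in turn 12th in likeness to that of Krt19, and those of Krt18, Krt20 and Krt23 were 40th, 180th and 332nd, while Krt8, Krt7 and Krt80 were 1517th, 4640th and 5243rd. This measure takes in the size of the difference between the groups, so genes with a like fold change come out as alike.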

How the data were processed

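RNA-seq libraries of kidney from 2 Prdm16fl/fl and 3 Ksp-Cre/Prdm16fl/fl mice, 1 library per mouse, were grouped by the genotype in the sample labels. Each mouse is a separate animal by the labels. RNA was selected with oligo(dT) and read as 150 bp paired ends.

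Reads of low quality or with adapter were filtered out, and the authors deposited for each gene a raw count, a TPM and an FPKM. The submitters' processing notes name CASAVA, featureCounts 2.0.1, DESeq2 1.16.1 and hg38. The last is a human build and cannot be that of mouse gene tables. The mouse build, the aligner and the use of strand are not given in the sources used here, so positions are as in the files, which differ from GRCm38. Deposited TPM differed from TPM recomputed from the counts by at most 4.7e-06; FPKM was not used. The lines of 5 genes were rejoined. No libraries were duplicates: the chi-square of counts per degree of freedom was 9.89 for the closest pair.

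Of 35478 genes, 9845 had 0 counts throughout, and filterByExpr of edgeR 4.0.16 (R 4.3.3) kept 16394, which were scaled with TMM and tested with the quasi-likelihood test and Benjamini-Hochberg adjustment over all of them. The thresholds were 0.05 for the adjusted p and 1 for the size of the log2 fold change. CPM values are per 1000000 TMM-scaled counts. With 2 and 3 mice a group, precision is set by the spread between mice more than by depth. The scripts were tested on simulated data. The genes and lists were chosen with earlier results of these data known.

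Genes named were the 8 genes described, any gene of a list past both thresholds, and the 2 most abundant of each list (up to 4 of other keratins and Sprr genes, with Krt15 the fourth). Krt5, Krt14, Krt17, Dsp, Dsg2, Elf3, Fosl2, Sox9, Upk1b, Upk2 and Upk3a were added after their values were seen. So were the genes named as called by DESeq2 or without a mouse. Some genes that the rule would name are not reported here. The alternatives were other filters, scalings, DESeq2 1.42.0, a replicate block and leaving out each mouse.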

Additional observations from a re-analysis of the deposited data

How the results depend on the processing

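Leaving out each mouse in turn moved the counts of called genes from 13 higher to 0 to 231 and from 103 lower to 0 to 502: both counts were 0 without control mouse 1, control mouse 3, Ksp-Cre mouse 1 or Ksp-Cre mouse 2, with 1 mouse left in the control group in the first 2 of these fits, where 1749, 1330, 2514 and 2298 genes had an unadjusted p under 0.05, and 231 and 502 without Ksp-Cre mouse 3. The counts higher and lower were 37 and 250 without the filter, 112 and 381 with DESeq2 and 12 and 34 with library size scaling, which shifted the median over all genes by 0.111 on the log2 scale. Mice 1 and 3 share a number across the groups, but only 2 such pairs exist and deviations from the group means did not correlate (r = 0.00102 and -0.022, across genes), so the numbers were not taken as pairing. A replicate block gave 0 genes higher and 0 lower, with 2061 at an unadjusted p under 0.05 (edgeR). Ksp-Cre mouse 2 has no control mouse of its number, so the difference in the block fit rests on mice 1 and 3. The cause of these shifts was not tested.

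Called transcription factor genes went from 0 to 1 without the filter (Fosl2), to 2 with DESeq2 (Fosl2 and Sox9) and to 0 to 1 over the fits without 1 mouse (Sox9, without Ksp-Cre mouse 3). The counts of the other 4 gene lists were 0 under every alternative run. Of the 8 genes, Krt19 and Sprr2f were called under both other scalings and with 10 counts required in every library. Krt18 was added without the filter, and Krt18 and Krt20 with DESeq2. Over the whole table these settings called 12 (library size), 13 (upper quartile), 14 (10 counts), 37 (no filter) and 112 (DESeq2) genes higher. The 8 genes were chosen on this contrast, so these calls are no test of them. Log2 fold changes moved by more than the replicate spread in 3 fits: Krt80 without control mouse 1 (0.24) and 3 (-0.03), and Sprr2f without control mouse 1 (2.92). Counts went down to 36 for Krt23 and 35 for Sprr2f. Their SEs (0.32 and 0.32) were like that of Krt20 (0.32), which had 862 to 2703 counts. These SEs draw in part on the variation of other genes, so the likeness does not show that low counts cost no precision.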
